A study of Mus musculus with 7 samples.

Results

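The miR-34 family was described in the colorectum of mice with early chemically induced colorectal cancer (CRC) and of healthy mice. Its members were taken by name, as every entry of the deposited small RNA count table that begins with miR-34a, miR-34b or miR-34c. These were 6 of 1915 mature miRNA entries: the 5p and the 3p arm of each of the 3 hairpins. All 6 had counts in every mouse. With the filter on low counts, 878 entries were tested, among them 5 of the 6 members, and miR-34c-3p was too rare.

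The CRC group was M4, M5 and M6. These mice had been injected with azoxymethane (AOM), a colon carcinogen, at 10 mg/kg, and 5 days after the injection had begun 7 days on drinking water with 2.5% dextran sodium sulfate (DSS), an agent that damages colon epithelium. The protocol of these mice also lists 14 days on water. They were taken at stage T1, day 17. The healthy group was M1, M2 and M3, which had received 0.9% NaCl. All were wild-type C57BL/6 females, with an age of 7 weeks in the protocol. No mice received AOM alone or DSS alone, so carcinogen, injury and tumour cannot be told apart in the comparison. The tissue was whole colorectum. The labels list 2 libraries of M1 and the table has 1 column of that name, used as 1 profile.

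MiRNAs are short RNAs that pair with messenger RNAs through their seed (bases 2 to 8) and repress them. The tumour suppressor p53, a transcription factor activated by DNA damage, induces the genes of miR-34a and of miR-34b/c, and their 5p strands repress cell cycle and survival genes such as Cdk6, Met and Bcl2. In the mouse gut, miR-34a is known to restrain inflammation-linked colon tumours. MiR-34a is made in many tissues, whereas miR-34b and miR-34c are known above all from testis, brain and multiciliated epithelia.

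The mature sequences show which entries can repress the same messenger RNAs. They are given 5′ to 3′ as deposited, with the seed in capitals and the prefix mmu for mouse.
mmu-miR-34a-5p: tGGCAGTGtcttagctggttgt
mmu-miR-34b-5p: aGGCAGTGtaattagctgattgt
mmu-miR-34c-5p: aGGCAGTGtagttagctgattgc
mmu-miR-34a-3p: aATCAGCAagtatactgccct
mmu-miR-34b-3p: aATCACTAactccactgccatc
mmu-miR-34c-3p: aATCACTAaccacacagccagg
The 3 entries of the 5p arm share 1 seed. In the table, 6 entries carry it, the other 3 being miR-449a-5p, miR-449b and miR-449c-5p. On the 3p side, miR-34b-3p and miR-34c-3p share a seed that no other entry has, and the seed of miR-34a-3p occurs in 1 entry. MiR-34b-5p and miR-34c-5p differ at 2 of 23 positions, counted from the 5′ end with the base of miR-34b-5p first: A11G and T23C. The rule by which mismatched reads went to either entry is not stated in the sources used here. All other pairs of entries on the same arm differed by at least 4 edits.

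The hairpins lie at a pair of loci, shown here because miR-34b and miR-34c share theirs. The sequences are RefSeq's on GRCm38.p6, 5′ to 3′, with the mature arms in capitals.
Mir34a: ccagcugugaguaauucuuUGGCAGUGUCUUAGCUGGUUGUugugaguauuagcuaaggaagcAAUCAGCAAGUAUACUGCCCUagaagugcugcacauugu
Mir34b: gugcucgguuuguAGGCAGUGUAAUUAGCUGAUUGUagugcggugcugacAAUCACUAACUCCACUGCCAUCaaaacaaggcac
Mir34c: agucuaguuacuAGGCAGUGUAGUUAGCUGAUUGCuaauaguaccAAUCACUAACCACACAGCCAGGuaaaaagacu
Mir34a is on the plus strand of chromosome 4, from 150068454 to 150068555, and its last 17 bases overlap an exon of Gm37795, an unconfirmed transcript on the same strand. Mir34b (51103562 to 51103645) and Mir34c (51103034 to 51103110) are on the minus strand of chromosome 9, with 451 bases between them. Both lie within Btg4 on the opposite strand, outside its exons. Mir34b and Mir34c are known to come from 1 primary transcript.

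The profiles held 3206127 to 6601899 miRNA reads in CRC mice and 8222508 to 15280434 in healthy mice. Levels below are in CPM, counts scaled to 1000000 reads of a profile, on library sizes adjusted by TMM, a method that balances most miRNAs between profiles. Using total counts alone raised log2 fold changes by a median of 0.71, so directions depend on the scale, and for the miR-34 entries values on total counts are given beside those on the TMM scale. The healthy profile M3 was most like the CRC profile M4. In edgeR's quasi-likelihood test, 20 of 878 miRNAs (2.28%) passed a Benjamini-Hochberg adjusted p of 0.05 between CRC and healthy mice, all of them higher in CRC; 0% were called lower. Some other settings also called miRNAs lower in CRC, such as DESeq2 with 35 of the 878. The edgeR test is the source of every log2 fold change and adjusted p below unless another is named.

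None of the 5 tested miR-34 entries passed it. MiR-34a-5p was the abundant member, with 2077 ± 439.8 CPM in CRC mice and 1638 ± 611 CPM in healthy mice (SD, n = 3 each). On the TMM scale miR-34b-5p was the entry with the clearest separation. It had 44.5 ± 4.97 CPM in CRC mice and 90.2 ± 14.1 CPM in healthy mice (SD, n = 3 each), and no CRC mouse reached a healthy one. MiR-34c-5p, from the same transcript as miR-34b-5p, had 81.4 ± 43.1 CPM in CRC mice and 81.3 ± 22.2 CPM in healthy mice (SD, n = 3 each). The 3p arms were rare, and their groups overlapped on the TMM scale. With total counts alone the groups overlapped for miR-34b-5p and separated for miR-34b-3p, which was higher in CRC mice.

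MiR-34a-5p, the main p53-induced member, had 2110.4 CPM in M4, 2499 CPM in M5 and 1621 CPM in M6, against 1248, 1324 and 2342.5 CPM in M1, M2 and M3. The groups overlapped, because the healthy M3 was above the CRC mice M4 and M6. The log2 fold change was 0.34 (SE 0.40, 95% interval -0.56 to 1.24, adjusted p = 0.642, edgeR). By number of reads, miR-34a-5p ranked 50th to 59th among all entries in CRC mice and 56th to 77th in healthy mice. With total counts alone its log2 fold change was 0.96 (SE 0.52, adjusted p = 0.310, edgeR), and the groups still overlapped, at 2002 to 3874 CPM in CRC mice and 771 to 2588 CPM in healthy mice.

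MiR-34b-5p had 46.3 CPM in M4, 48.3 CPM in M5 and 38.9 CPM in M6, against 97.1, 99.4 and 74.0 CPM in M1, M2 and M3. The CRC mice lay close together and below every healthy mouse. The log2 fold change was -1.02 (SE 0.39, 95% interval -1.90 to -0.14), with an unadjusted p of 0.0276 and an adjusted p of 0.156 in edgeR's test. Of all tested miRNAs 12.4% had each CRC mouse below each healthy mouse, and 9.68% were lower at an unadjusted p under 0.05, so such a separation was common in these profiles. With total counts alone the groups overlapped, at 43.9 to 74.9 CPM in CRC mice and 57.9 to 81.7 CPM in healthy mice, and the log2 fold change was -0.25 (SE 0.46). With each profile's trend on GC content removed it was -0.66 (SE 0.37). Without M3 and M4, 2 mice against 2, it was -1.46 (SE 0.27, adjusted p = 0.000167, edgeR), in a fit that called 53.2% of the miRNAs it tested. In whole tissue, fewer cells that make a miRNA and less of it per cell cannot be told apart.

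MiR-34c-5p had 130.45 CPM in M4, 64.0 CPM in M5 and 49.7 CPM in M6, against 65.5, 71.6 and 106.7 CPM in M1, M2 and M3. Its highest values were in M4 and M3, a CRC and a healthy mouse, and the other 4 profiles lay below both. The log2 fold change of 0.0030 had an SE of 0.48 and a 95% interval of -1.08 to 1.08 (adjusted p = 0.997, edgeR), which leaves room for a change of about 2-fold either way. Its sign changed with the setting, being 0.52 with total counts alone and -0.56 without M3 and M4.

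**Figure D1:**
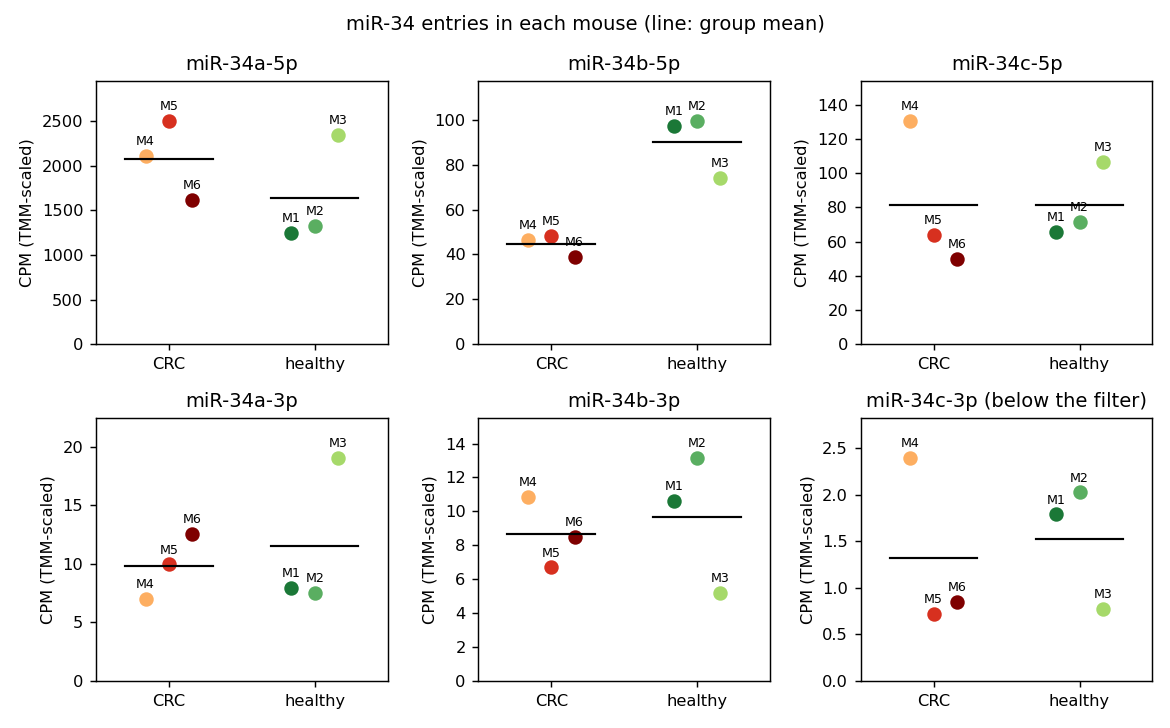
Level of each miR-34 entry in each mouse, in CPM on TMM-scaled library sizes, with CRC mice on the left and healthy mice on the right of each panel; each point is 1 mouse and the line is the group mean. The groups separate in the panel of miR-34b-5p, with 38.9 to 48.3 CPM in CRC mice below 74.0 to 99.4 CPM in healthy mice, and overlap in the others.

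The 3p arms, usually the discarded strands, stayed near or below 20 CPM. MiR-34a-3p had 7.03 CPM in M4, 9.95 CPM in M5 and 12.5 CPM in M6, against 7.94, 7.53 and 19.0 CPM in M1, M2 and M3. M3 stood above the other 5 profiles, and the log2 fold change was -0.23 (SE 0.54, adjusted p = 0.829, edgeR), or 0.38 with total counts alone. MiR-34b-3p had 10.9 CPM in M4, 6.69 CPM in M5 and 8.50 CPM in M6, against 10.6, 13.2 and 5.17 CPM in M1, M2 and M3. The lowest and the highest of these were both healthy mice. Its log2 fold change was -0.15 (SE 0.52, adjusted p = 0.889, edgeR). With total counts alone it was 0.65 (SE 0.48, adjusted p = 0.457, edgeR), and the groups did not overlap, at 10.3 to 12.5 CPM in CRC mice and 5.72 to 7.66 CPM in healthy mice. On that scale 22.9% of tested miRNAs had groups that did not overlap, against 26.5% on the TMM scale.

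MiR-34c-3p was counted 15 times in M4 and 4 times each in M5 and M6, against 16, 18 and 7 times in M1, M2 and M3. A count of 4 has an exact 95% Poisson interval of 1.09 to 10.2, which covers counting error only. No difference was detected at this depth. Fitted with no filter on the TMM scale, its log2 fold change was -0.21 (SE 0.79, adjusted p = 0.927, edgeR), while on total counts it had 1.12 to 2.27 CPM in CRC mice and 0.851 to 1.29 CPM in healthy mice.

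**Figure D2:**
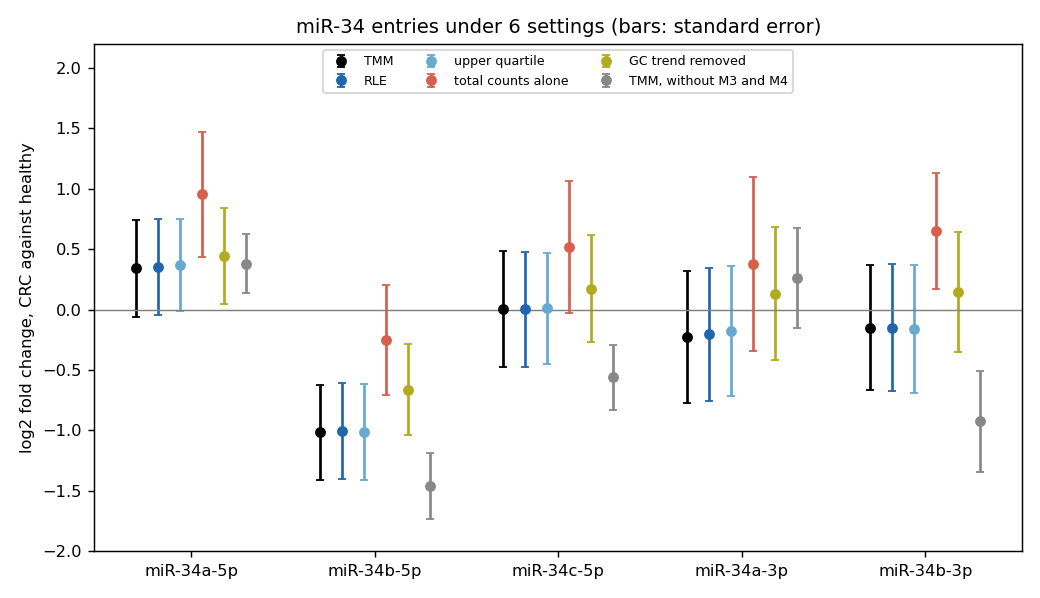
Log2 fold change of the 5 tested miR-34 entries, CRC against healthy mice, on the vertical axis, under the TMM scale and 5 other settings, with bars of 1 standard error. MiR-34a-5p stays above 0 and miR-34b-5p below 0 in all 6 settings shown, from -0.25 with total counts alone to -1.46 without M3 and M4, while miR-34c-5p and both 3p arms lie on both sides of 0.

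Ratios between entries of 1 profile do not depend on the scaling between profiles. They were looked at after the values above were known, so they are given without a test. MiR-34a-5p had 45.6 reads for each read of miR-34b-5p in M4, 51.7 in M5 and 41.7 in M6, against 12.9 in M1, 13.3 in M2 and 31.7 in M3. Every CRC mouse was above every healthy mouse, and M3 was the healthy mouse nearest to the CRC group. The ratio averaged 46.3 ± 5.06 in CRC mice and 19.3 ± 10.7 in healthy mice (SD, n = 3 each). Among the other 877 tested miRNAs, 20% had a ratio to miR-34a-5p that separated the groups.

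For miR-34c-5p the ratio did not separate them. MiR-34a-5p had 16.2, 39.0 and 32.6 reads per read of miR-34c-5p in M4, M5 and M6, against 19.1, 18.5 and 22.0 in M1, M2 and M3. M4 was the lowest of the 6 and M5 the highest.

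The transcript partners miR-34b-5p and miR-34c-5p did not keep 1 ratio. MiR-34b-5p had 0.355, 0.754 and 0.782 reads per read of miR-34c-5p in M4, M5 and M6, against 1.48, 1.39 and 0.694 in M1, M2 and M3. In M1 and M2 miR-34b-5p was the more frequent, and in the other 4 profiles miR-34c-5p was. M3 lay within the range of the CRC mice, so the groups overlapped.

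Together the 6 entries held 0.219%, 0.407% and 0.254% of all miRNA reads in M4, M5 and M6, against 0.103%, 0.0883% and 0.282% in M1, M2 and M3. M3 held more than the CRC mice M4 and M6. MiR-34a-5p made up 91.5% to 95.1% of these family reads in CRC mice and 87.2% to 91.9% in healthy mice. MiR-34b-5p made up 1.84% to 2.25% in CRC mice and 2.90% to 6.79% in healthy mice, without overlap. As most family reads were miR-34a-5p, this share largely restates the ratio of miR-34a-5p to miR-34b-5p above. The groups separated for 20% of the ratios of other tested miRNAs to miR-34a-5p. Reads of an entry also depend on how well a library preparation captures its sequence, so these shares order reads and not molecules.

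Each hairpin gives a 5p and a 3p strand, and their ratio compares products of the same precursor. It was tested with limma on log2 ratios over 236 hairpins, of which 1 (0.424%) passed an adjusted p of 0.05. That number was 0 of 233, 238, 234 and 242 without M1, M2, M5 and M6 (22, 22, 18 and 23 at an unadjusted p under 0.05). It was 10 of 234 without M3, 12 of 242 without M4 and 98 of 247 without both M3 and M4. None of the miR-34 hairpins that could be fitted passed in any of these. MiR-34b had 4.26, 7.22 and 4.57 reads of its 5p arm per read of its 3p arm in M4, M5 and M6, against 9.15, 7.56 and 14.3 in M1, M2 and M3. The CRC mice were all below the healthy mice, by a small margin between M5 and M2. The difference was -0.94 log2 units (SE 0.49, 95% interval -2.03 to 0.15, adjusted p = 0.439, limma). Groups did not overlap for 14.4% of the hairpins. With 37 to 68 reads of miR-34b-3p in the CRC mice and 47 to 117 in the healthy mice, counting error adds to this spread.

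MiR-34a was the most one-sided of the 3, with 300.4, 251 and 129 reads of the 5p arm per read of the 3p arm in M4, M5 and M6, against 157, 176 and 123 in M1, M2 and M3. The difference was 0.50 log2 units (SE 0.49, adjusted p = 0.637, limma), and M6 lay among the healthy mice. MiR-34c had 54.5, 88.5 and 58.5 in M4, M5 and M6, against 36.6, 35.4 and 138 in M1, M2 and M3. Its difference was 0.15 log2 units (SE 0.64, adjusted p = 0.899, limma). The value of M3 rests on 7 reads of the 3p arm, and those of M5 and M6 on 4 reads each.

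**Figure D3:**
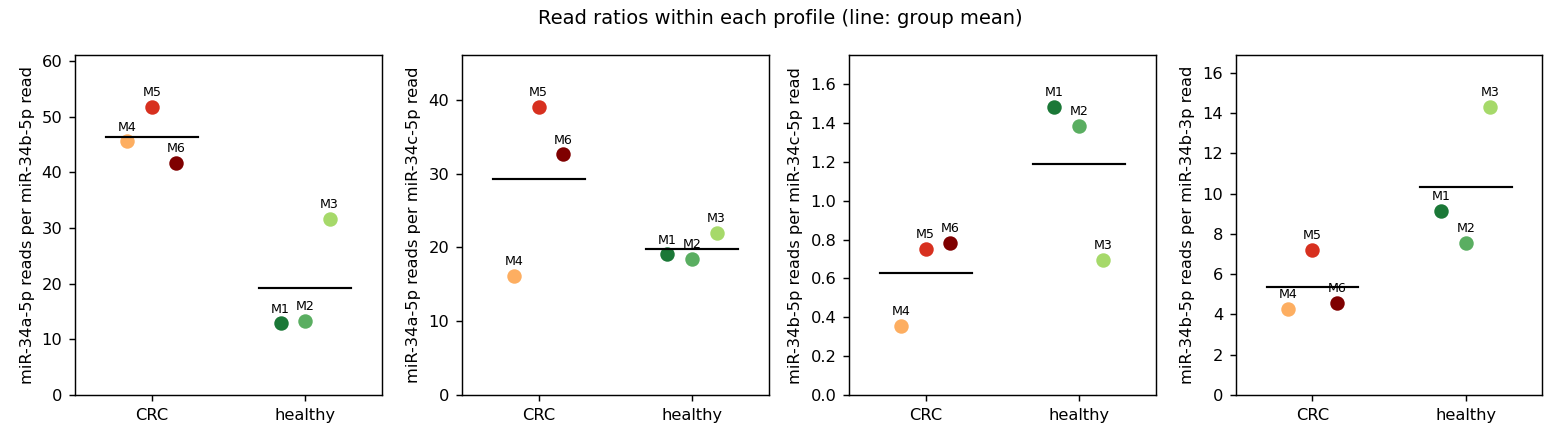
Ratios of read counts within each profile, with CRC mice on the left and healthy mice on the right; each point is 1 mouse and the line is the group mean. From left to right the panels show miR-34a-5p per miR-34b-5p (41.7 to 51.7 in CRC mice, 12.9 to 31.7 in healthy mice), miR-34a-5p per miR-34c-5p, miR-34b-5p per miR-34c-5p, and the 5p arm per 3p arm of miR-34b; the groups separate in the first and last panel.

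The other miRNAs with the miR-34 seed were rare. The miR-449 genes are known from multiciliated cells, where they act together with miR-34b/c. Their mature forms, with the seed in capitals, show what they share.
mmu-miR-449a-5p: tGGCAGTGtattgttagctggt
mmu-miR-449b: aGGCAGTGttgttagctggc
mmu-miR-449c-5p: aGGCAGTGcattgctagctgg
MiR-449a-5p had 11.98, 7.06 and 5.52 CPM in M4, M5 and M6, against 2.35, 2.59 and 8.59 CPM in M1, M2 and M3. M3 lay within the CRC range, and the log2 fold change was 0.86 (SE 0.63, adjusted p = 0.429, edgeR). MiR-449c-5p had at most 3.51 CPM in any mouse (log2 fold change -0.27, SE 0.67). With total counts alone the log2 fold changes of miR-449a-5p and miR-449c-5p were 1.28 (SE 0.77) and 0.26 (SE 0.70). MiR-449b, which did not pass the filter, was counted 1, 10 and 6 times in M4, M5 and M6, against 1, 1 and 0 times in M1, M2 and M3. Its 0 in M3, taken as allowing up to 3 counts, leaves a level of up to 0.365 CPM of total counts, for counting error only.

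Other miRNAs that p53 is known to induce, or whose processing it promotes, were read from a list of 12, of which 11 were in the table and tested. Of these 11, 0 passed edgeR's test in either direction, where 2.28% of all tested miRNAs passed. On the TMM scale their median log2 fold change was -0.55, against -0.03 over all 878 miRNAs, and 3 were positive and 8 negative. With total counts alone the median was 0.11, against 0.62 over all, 6 were positive and 5 negative, and 1 passed, miR-143-3p (-1.40, adjusted p = 0.0480, edgeR), where 4.9% of all tested miRNAs passed. At an unadjusted p under 0.05 there were 2 on the TMM scale, against 23.2% of all tested miRNAs. Both were negative and are also the main smooth muscle miRNAs: miR-145a-5p had -2.48 (SE 0.84) and miR-143-3p -2.11 (SE 0.54). The epithelial miR-192-5p, miR-194-5p, miR-215-5p and miR-141-3p had -0.18 (SE 0.44), -0.88 (SE 0.43), -0.84 (SE 0.78) and -1.02 (SE 0.46). Scaled by total counts they had 0.57, -0.083, -0.15 and -0.093. MiR-107-3p, which p53 induces with its host gene, had -0.54 (SE 0.46) and miR-16-5p, whose processing p53 promotes, -0.55 (SE 0.34). On total counts these were 0.20 and 0.11. The ones positive on both scales were, with their TMM values, miR-15a-5p at 0.47 (SE 0.54), miR-200c-3p at 0.30 (SE 0.36) and miR-22-3p at 0.25 (SE 0.42).

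**Figure D4:**
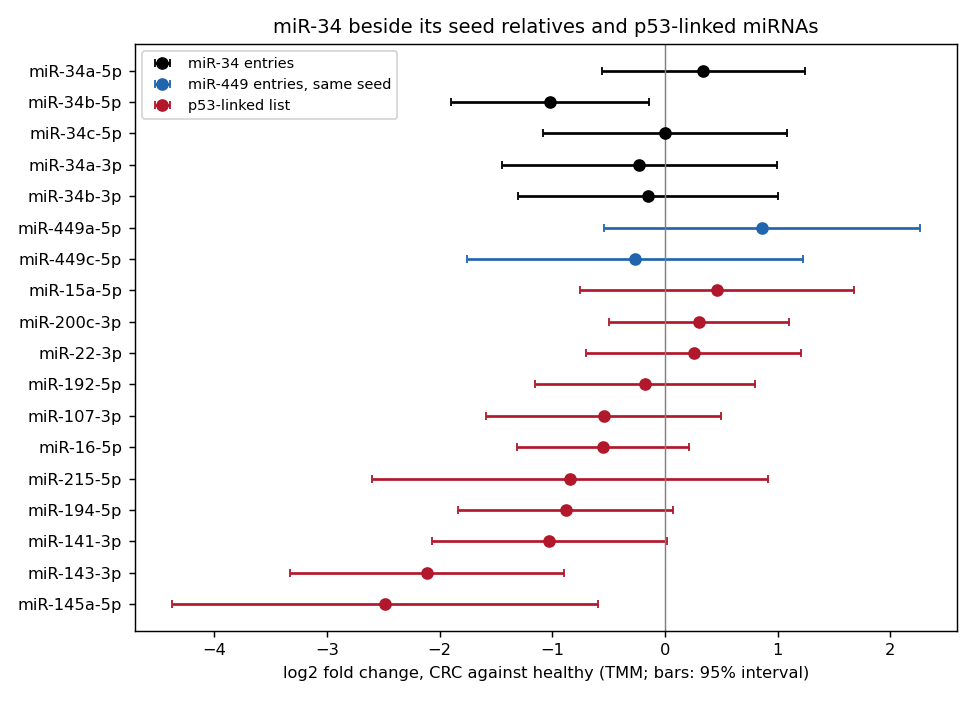
Log2 fold change, CRC against healthy mice, with 95% intervals on the horizontal axis, for the 5 tested miR-34 entries, 2 tested miR-449 entries and 11 miRNAs linked to p53. Of the miR-34 entries, the interval of miR-34b-5p (-1.90 to -0.14) lies below 0 before adjustment over all miRNAs, as do those of miR-143-3p and miR-145a-5p.

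The levels of cell type marker miRNAs differed between the profiles, with no marker called on the TMM scale, where 2.28% of all tested miRNAs were. Nerve markers (7 of 7 tested, 0 called, none at 0 in any mouse) summed to 412 to 749 CPM in CRC mice and 919 to 1873 CPM in healthy mice, without overlap; of all tested miRNAs 12.4% were lower in CRC mice without overlap. The sums did not overlap with total counts alone either, at 621 to 710.1 CPM in CRC mice and 1015 to 1231.5 CPM in healthy mice. On that scale 22.9% of all tested miRNAs had groups that did not overlap, in either direction. Both shares are of single miRNAs and not of sums. Of the 7 nerve markers, miR-9-3p had a positive log2 fold change (0.13), and the groups overlapped for it and for miR-128-3p. Smooth muscle markers (8 of 8 tested, 0 called) summed to 44670 to 218700 CPM in CRC mice and 191090 to 824160 CPM in healthy mice, with M3 below M4. With total counts alone they summed to 65575 to 207460 CPM in CRC mice and 211100 to 479700 CPM in healthy mice, without overlap. All 8 had a negative log2 fold change and an unadjusted p under 0.05 on the TMM scale (edgeR). Of all tested miRNAs 9.68% were lower at that p. Of the 7 nerve markers 6 were negative, 3 of them at that p. Epithelial markers (8 of 8 tested, 0 called) summed to 87900 to 165340 CPM in CRC mice and 110630 to 218960 CPM in healthy mice, and with total counts alone to 136260 to 175420 CPM in CRC mice and 122210 to 141910 CPM in healthy mice. Fibroblast markers (5 of 5 tested, 0 called) summed to 4648 to 10765 CPM in CRC mice and 6667 to 14213 CPM in healthy mice. With total counts alone they summed to 6823 to 10212 CPM in CRC mice and 7365 to 8674 CPM in healthy mice. All 5 were negative on the TMM scale, with 1, miR-199b-5p (-2.03, SE 0.64), at an unadjusted p under 0.05 (edgeR). With total counts alone 4 were positive and 1 negative. Blood cell markers (6 of 6 tested, 0 called) summed to 8394 to 9147 CPM in CRC mice and 3445 to 15801 CPM in healthy mice, with M3 highest. With total counts alone they summed to 7962 to 13427 CPM in CRC mice and 2005 to 17456 CPM in healthy mice. On the TMM scale 4 were positive and 2 negative. At an unadjusted p under 0.05 there was 1, miR-451a (1.45, SE 0.53, edgeR), against 23.2% of all tested miRNAs. With total counts alone all 6 were positive. The part of these cell types in the values of the miR-34 entries was not tested.

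**Figure D5:**
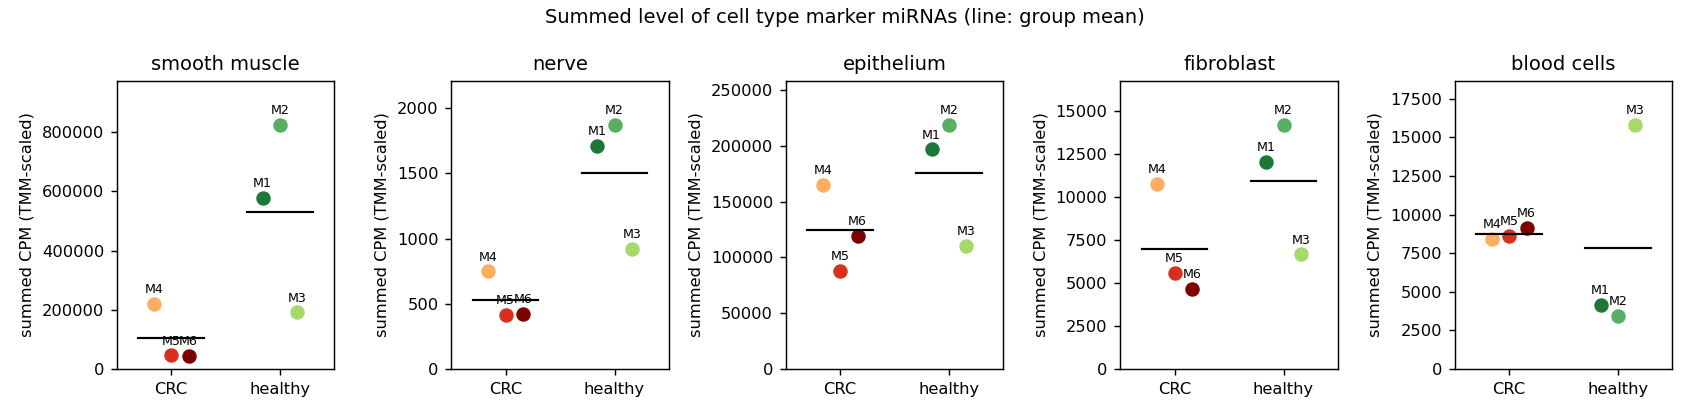
Summed level of the marker miRNAs of 5 cell types in each mouse, in CPM on TMM-scaled library sizes, with CRC mice on the left and healthy mice on the right of each panel; each point is 1 mouse and the line is the group mean. The nerve sums do not overlap between the groups (412 to 749 CPM in CRC mice, 919 to 1873 CPM in healthy mice). In each of the 5 panels M3 lies away from M1 and M2. In the nerve panel M3 (919 CPM) is nearer to M4 (749 CPM) than to M1 (1709 CPM).

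The miRNAs whose levels followed each miR-34 entry most closely were taken as the 3 with the highest Pearson r of log2 CPM over the 6 profiles, among miRNAs with a mean of at least 50 CPM. The profiles fall into neighbouring pairs, so these values describe likeness only. For miR-34a-5p they were miR-497a-5p (r = 0.963), miR-135b-5p (0.923) and miR-21a-3p (0.912). MiR-497a-5p had 313, 415 and 271 CPM in M4, M5 and M6, against 192, 163 and 428 CPM in M1, M2 and M3, so M3 stood with the CRC mice as it did for miR-34a-5p. For miR-34b-5p they were miR-329-3p (0.991), miR-101b-3p (0.971) and miR-30c-5p (0.968). MiR-329-3p had 43.9, 40.7 and 35.3 CPM in M4, M5 and M6, against 102, 95.1 and 77.6 CPM in M1, M2 and M3, levels close to those of miR-34b-5p itself.

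For miR-34c-5p they were miR-1928 (r = 0.958), let-7b-5p (0.943) and miR-223-3p (0.935), which like miR-34c-5p were highest in M3 and M4. Let-7b-5p had 7473, 3514 and 3152 CPM in M4, M5 and M6, against 4779.9, 4136 and 5522 CPM in M1, M2 and M3. For miR-34a-3p they were miR-3071-3p (0.964), miR-350-3p (0.945) and miR-136-5p (0.937), all highest in M3. The 4 lists share no miRNA, and miR-34a-5p, miR-34b-5p and miR-34c-5p were not among the closest of another miR-34 entry. The 3p entries had means under 50 CPM and so could not be listed. MiR-34b-3p and miR-34c-3p, with means under 10 CPM, had no list of their own.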

How the data were processed

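Small RNA of 6 mice was sequenced on an Ion Proton, per the labels' protocols. Alignment was with BWA to mm10 (GRCm38) according to the submitters' processing notes. What the authors deposited are whole-number counts per mature miRNA, not normalized; 1 of 1915 entries had 0 counts in all mice. The members, lists and tests were chosen with earlier results of these data known.

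The counts went into edgeR 4.0.16 (R 4.3.3) with TMM factors, filterByExpr by group, robust glmQLFit and glmQLFTest, two-sided, Benjamini-Hochberg adjustment over 878 miRNAs. SE is the log2 fold change divided by the square root of F, without sign. Arm ratios, log2 of 5p over 3p counts with 0.5 added, were tested with limma 3.58.1 (trend, robust) over hairpins with a mean of at least 10 counts in both arms; miR-34a was read from the same fit. Pattern likeness used log2(CPM + 1) and entries with a mean of at least 10 CPM. Alternatives were other scalings, no filter, DESeq2 1.42.0, limma-voom, a non-robust fit, removal of each profile's GC trend (loess, span 0.75), each mouse left out, and M3 with M4 left out. The fits were tested on simulated data. Named entries were all miR-34 entries, those with the same seed, the p53 list and the 3 most alike. Loci are from GENCODE M21. Mice are separate animals. MiR-605-5p of the p53 list was not analysed here.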

Additional observations from a re-analysis of the deposited data

How the results depend on the processing

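With TMM in edgeR, 20 of 878 miRNAs were called between CRC and healthy mice. Of the same 878, 43 were called with total counts alone and 111 in DESeq2. In limma-voom 0 were called (216 at an unadjusted p under 0.05). The number was 64 of 1914 (3.34%) with no filter and 576 of 1082 (53.2%) without M3 and M4. The number called ranged from 0 to 237 as single mice were left out. It was 0 of 1096, 947 and 939 without M1, M5 and M6 (181, 121 and 131 at an unadjusted p under 0.05 in edgeR). It was 4 of 1106 without M2, 63 of 1068 without M3 and 237 of 1188 without M4. Of the called miRNAs, 1 was lower in CRC with total counts alone, 12 with no filter and 35 in DESeq2. Lower ones numbered 34 without M3, 67 without M4 and 297 without M3 and M4. MiR-34b-5p was below 0 in every setting run, from -1.46 to -0.25, and was called in 1, without M3 and M4 (-1.46). MiR-34a-5p was above 0 in every setting run, from 0.19 without M1 to 0.96 with total counts alone, and was called in none. MiR-34c-5p turned to -0.038 with no filter, -0.078 in limma-voom and -0.56 without M3 and M4, and ranged from -0.44 (without M4) to 0.25 as single mice were left out. MiR-34b-3p turned to 0.65 with total counts alone and 0.14 with the GC trend removed, was -0.93 without M3 and M4, and ranged from -0.52 to 0.30 as single mice were left out. MiR-34a-3p turned to 0.38 with total counts alone, 0.13 with the GC trend removed and 0.26 without M3 and M4, and ranged from -0.46 to 0.25 in the same way. The arm ratio of miR-34c ranged from -0.045 (without M5) to 0.78 (without M3) as M3, M5 or M6 was left out, and was 0.87 without M3 and M4. It could not be fitted without M1, M2 or M4, or at a minimum of 50 counts, since its 3p arm fell under the minimum. The causes were not tested. No paired analysis was possible because mouse numbers are not shared between the groups. Depth limits miR-34c-3p and miR-449b most, with 18 counts or fewer in each mouse.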
